A study of Homo sapiens with 8 samples.

Results

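The thioredoxin and peroxiredoxin system is described here by 10 genes, listed by the function of their products. Of these 10 genes, 9 were matched to 1 of the 57815 gene identifiers in the data, namely *TXN*, *TXNRD1*, *TXNRD2*, *SRXN1*, *PRDX1*, *PRDX2*, *PRDX3*, *PRDX5* and *PRDX6*. No identifier was matched to *TXNIP*, the gene of the thioredoxin-interacting protein, and it was not analysed here. Expression was measured by RNA-seq in ABC1 and HCC4006 cells, established human lung adenocarcinoma lines that the study groups as NRF2-normal. Cells of each line received 100 μM DEM or DMSO as the vehicle, and RNA was taken after 16 h. DEM is an electrophile that reacts with thiols and inhibits KEAP1, the protein that keeps the transcription factor NRF2 low. The methods of the study name it diethyl maleate, whereas the series title spells it dimethylmaleate. Each of the 4 groups, ABC1 vehicle, ABC1 DEM, HCC4006 vehicle and HCC4006 DEM, held 2 libraries, which are numbered replicate 0 and replicate 1 and are biological duplicates according to the methods.

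Thioredoxin is a small protein that reduces disulfides in other proteins, and thioredoxin reductase, a selenoprotein, returns it to the reduced form with electrons from NADPH. Peroxiredoxins break down peroxides with a reactive cysteine and, in most family members, draw on thioredoxin to recover. When that cysteine is overoxidised to a sulfinic acid, sulfiredoxin repairs it in the typical 2-Cys peroxiredoxins, which makes the 3 kinds of protein parts of 1 electron relay. The genes of thioredoxin, the cytosolic reductase and sulfiredoxin are known as targets of NRF2, which binds the antioxidant response element.

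Promoters of *TXNRD1*, *SRXN1* and *TXN* are shown because these genes had a higher level in every DEM library than in any vehicle library of the same line. RefSeq promoters (250 bases before to 50 bases from a start site, taken on GRCh38.p14) were found for 7 of the 9 genes, in 11 windows, with no entry for *PRDX1* and *PRDX6*, and each window matched the GRCh37 genome exactly at 1 place. The antioxidant response element core was searched as TGANNNNGC on both strands, where N is any base, and as the stricter TGACNNNGC, whose matches are all matches of the first. Below, each sequence runs 5′ to 3′ on the strand of its gene from 250 bases before the start site to the start-site base itself, with matches of TGANNNNGC on either strand in capitals. A match on the other strand therefore appears as its reverse complement.
*TXNRD1*, upstream start, chr12:104609307-104609557 of GRCh37, plus strand: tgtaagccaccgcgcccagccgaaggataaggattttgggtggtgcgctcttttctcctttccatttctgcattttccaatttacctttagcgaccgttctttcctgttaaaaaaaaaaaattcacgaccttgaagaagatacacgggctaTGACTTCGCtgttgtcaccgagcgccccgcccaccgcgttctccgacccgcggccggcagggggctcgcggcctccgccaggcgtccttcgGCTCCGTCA
*TXNRD1*, downstream start, chr12:104680560-104680810 of GRCh37, plus strand: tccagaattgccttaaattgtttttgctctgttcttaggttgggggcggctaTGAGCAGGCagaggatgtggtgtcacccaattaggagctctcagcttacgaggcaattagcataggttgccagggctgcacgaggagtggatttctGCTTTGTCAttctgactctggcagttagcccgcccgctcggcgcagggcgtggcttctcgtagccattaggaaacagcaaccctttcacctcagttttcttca
*SRXN1*, chr20:633844-634094 of GRCh37, minus strand: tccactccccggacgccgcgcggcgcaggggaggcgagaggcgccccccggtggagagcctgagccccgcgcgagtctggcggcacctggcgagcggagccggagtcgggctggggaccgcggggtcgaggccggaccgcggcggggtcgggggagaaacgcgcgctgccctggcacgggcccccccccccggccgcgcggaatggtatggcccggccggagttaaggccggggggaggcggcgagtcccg
*TXN*, chr9:113018787-113019037 of GRCh37, minus strand: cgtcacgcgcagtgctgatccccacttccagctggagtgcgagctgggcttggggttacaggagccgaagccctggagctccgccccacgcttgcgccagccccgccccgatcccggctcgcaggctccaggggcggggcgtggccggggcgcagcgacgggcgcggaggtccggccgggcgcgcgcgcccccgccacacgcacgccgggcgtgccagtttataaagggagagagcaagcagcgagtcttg

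Both *TXNRD1* windows held the letters TGANNNNGC at 2 places. Counted from the start-site base as 0, the upstream window matched at -99 to -91 and at -8 to 0, both also matches of TGACNNNGC. The downstream window matched at -198 to -190 and at -102 to -94, the latter also a match of TGACNNNGC. Neither the *SRXN1* window nor the *TXN* window held the letters, nor did those of *PRDX5*, whereas windows of *PRDX2*, *PRDX3* and *TXNRD2* did. In all, TGANNNNGC was found in 6 of the 11 windows, of 4 genes, and in 41.8% of all 35116 RefSeq promoters in the table. The stricter TGACNNNGC was found in 2 windows, both of *TXNRD1*, and in 13.3% of all promoters. A match is a description of the letters and not of a bound site. Bases outside the windows were not searched, so a window without a match does not show that the gene lacks the element.

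Expression was given by the authors as FPKM, fragments scaled by the length of the transcript and by the mapped fragments of the library. Levels of different genes are set side by side on that scale, and their order depends on the lengths used. The largest library sum of FPKM was 1.18 times the smallest, and 12515 to 13573 genes per library had at least 1 FPKM. The authors' base means (counts scaled to a common depth and averaged over a line) summed to 13786938 in ABC1 and 13957320 in HCC4006. All 6 epithelial markers reached 1 FPKM in both lines. The lung lineage markers *NKX2-1*, *NAPSA*, *SFTPB* and *SFTPC* stayed under 1 FPKM in every ABC1 library, with *SFTPB* listed at 0. In HCC4006 *NKX2-1* had 42.4 to 47.1 FPKM and *NAPSA* 12.9 to 16.0 FPKM, whereas *SFTPB* and *SFTPC* stayed under 1 FPKM there too. No blood marker and no matched endothelial marker reached 1 FPKM, and 1 of 4 fibroblast markers, *COL1A1*, did so in each line. All 4 genes used to check the treatment, *NQO1*, *GCLM*, *HMOX1* and *SLC7A11*, rose with DEM in both lines, with log2 fold changes between 0.89 and 3.19. Where a library is left out, its group keeps 1 library, which is assumed to vary like the rest, so that the spread within a line comes from the other group alone. In ABC1 the calls of *NQO1* and *GCLM* were lost without vehicle replicate 0 (log2 fold changes 1.31 and 1.51, limma adjusted p = 0.284 and limma adjusted p = 0.194) and without vehicle replicate 1 (1.86 and 1.71, limma adjusted p = 0.122 and limma adjusted p = 0.137), and that of *NQO1* also without DEM replicate 0 (1.68, limma adjusted p = 0.0681) or DEM replicate 1 (1.49, limma adjusted p = 0.0908).

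**Figure D1:**
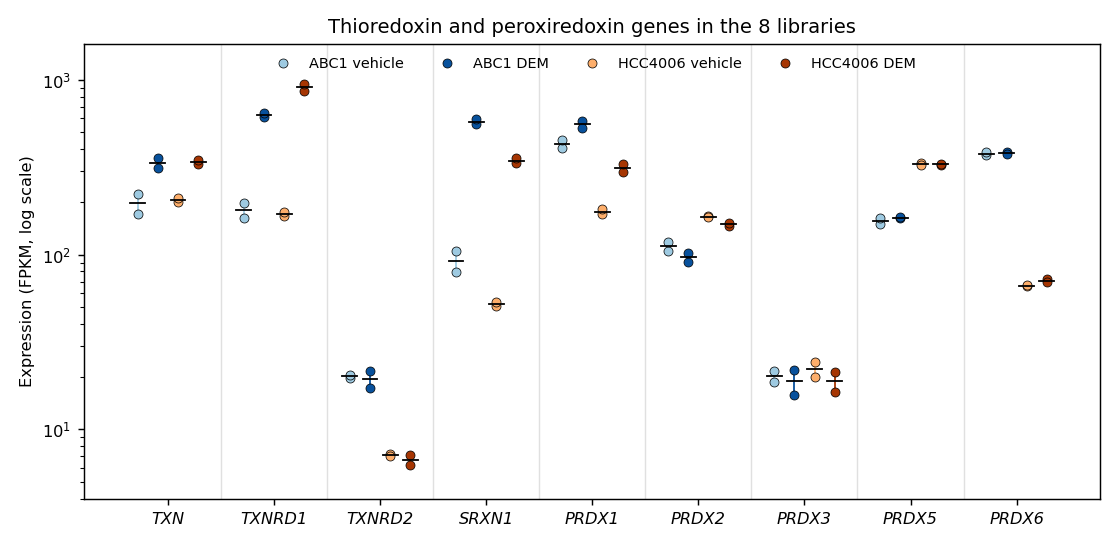
Expression of the 9 genes in FPKM on a log axis, with a point for each of the 8 libraries, coloured by line and treatment, and a bar at each group's mean (n = 2). *TXNRD1* and *SRXN1* stand far higher with DEM in both lines, and *PRDX6* and *TXNRD2* are lower in HCC4006 than in ABC1 whatever the treatment.

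Setting DEM against vehicle in each line asks which genes an electrophile raises in cells with normal NRF2 control. In ABC1 cells *SRXN1* and *TXNRD1* rose, and in HCC4006 cells *SRXN1*, *TXNRD1*, *PRDX1* and *TXN* rose. None of the 9 genes was called lower in either line. In RNA of whole cultures, fewer expressing cells and less RNA per cell cannot be told apart. The test was limma on log2(FPKM + 1), adjusted by Benjamini-Hochberg over all genes that averaged 1 FPKM or more in the line, with calls made where the adjusted p was under 0.05. All 9 genes passed that minimum in each comparison. In ABC1, 2 of the 9 genes were called higher with DEM, against 0.768% of the 12635 genes tested, and 0 were called lower, against 0.435%. In HCC4006, 4 of the 9 genes were called higher, against 8.45% of the 13542 genes tested, and 0 were called lower, against 10.7%. At an unadjusted p under 0.05 by limma, 4 of the 9 genes passed in ABC1, against 21.9% of all genes tested, and 4 of the 9 in HCC4006, against 36.8%, and each of these genes was higher with DEM. The median log2 fold change of the 9 genes was 0.06 in ABC1 and 0.09 in HCC4006, beside -0.02 and -0.03 over all genes tested, so that the median gene of the system barely moved while a few members moved far. Permuting 2 and 2 libraries exactly, on both sides, allows no p below 0.333 for 1 gene, which is why limma gives every p-value below.

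*TXNRD1* (ENSG00000198431.11, chr12:104609557-104744085 of GRCh37, plus strand) encodes the cytosolic thioredoxin reductase. In ABC1 its level was 161 and 196 FPKM in the vehicle libraries and 614 and 642 FPKM in the DEM libraries. In HCC4006 it was 167 and 174 FPKM with vehicle and 865 and 943 FPKM with DEM. The DEM libraries lay above the vehicle libraries without overlap in both lines, and with DEM *TXNRD1* had the highest FPKM of the 9 genes in each line. In ABC1 the vehicle mean of 179 ± 25.0 FPKM and the DEM mean of 628 ± 19.7 FPKM (SD, n = 2 each) were apart by a log2 fold change of 1.81 (SE, the standard error of the log2 fold change, 0.15, limma adjusted p = 0.0183). In HCC4006 the means were 171 ± 5.26 FPKM with vehicle and 904 ± 55.6 FPKM with DEM (SD, n = 2 each), and the log2 fold change was 2.40 (SE 0.07, limma adjusted p = 8.8e-05). Ordered by log2 fold change from the highest, *TXNRD1* stood at place 40 of 12635 genes in ABC1 and at place 16 of 13542 in HCC4006. The call of *TXNRD1* in ABC1 was lost when either vehicle library was left out. Without ABC1 vehicle replicate 0 the log2 fold change of *TXNRD1* was 1.67 (limma adjusted p = 0.201), without ABC1 vehicle replicate 1 it was 1.96 (limma adjusted p = 0.127), and over all alternatives its adjusted p ranged from 2.9e-04 to 0.201. With no minimum expression, *TXNRD1* and *SRXN1* were not called in ABC1 (limma adjusted p = 0.129 and limma adjusted p = 0.117).

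*SRXN1* (ENSG00000271303.1, chr20:627259-633844, minus strand) encodes sulfiredoxin and showed the largest response of the 9 genes in both lines. In ABC1 it had 79.5 and 105 FPKM with vehicle and 558 and 593 FPKM with DEM. In HCC4006 it had 50.8 and 53.6 FPKM with vehicle and 335 and 355 FPKM with DEM. Every DEM library thus held several times the level of every vehicle library of its line. In ABC1 the mean was 92.0 ± 17.8 FPKM with vehicle and 576 ± 24.5 FPKM with DEM (SD, n = 2 each), and the log2 fold change was 2.64 (SE 0.17, limma adjusted p = 0.00798). In HCC4006 the vehicle mean of 52.2 ± 2.00 FPKM compared with 345 ± 14.0 FPKM under DEM (SD, n = 2 each), and the log2 fold change was 2.70 (SE 0.07, limma adjusted p = 8.8e-05). *SRXN1* stood at place 15 in ABC1 and at place 10 in HCC4006. Without ABC1 vehicle replicate 0 its log2 fold change in ABC1 was 2.45 and the call was lost (limma adjusted p = 0.0722, with a range of 1.2e-04 to 0.117 over all alternatives).

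The level of *SRXN1* carries a limit of its own. Its exons are shared on the same strand with a readthrough gene, ENSG00000270299, which was given at 0.0349 to 0.593 FPKM. The authors' base mean of *SRXN1* was 450 in ABC1 and 293 in HCC4006, which is low for its FPKM. Per FPKM and kilobase of exon this came to 0.534 in ABC1 and 0.584 in HCC4006, beside medians over all genes of 5.53 and 5.61. The ratio of base mean to FPKM of the other 8 genes lay between 2.75 and 11.5 on that scale. The part of the shared exons in the level of *SRXN1* was not tested.

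*TXN* (ENSG00000136810.8, chr9:113006090-113018787, minus strand) encodes cytosolic thioredoxin, the electron donor of most peroxiredoxins. In ABC1 it had 171 and 222 FPKM with vehicle and 313 and 358 FPKM with DEM. In HCC4006 it had 199 and 209 FPKM with vehicle and 330 and 345 FPKM with DEM. The groups did not overlap in either line. In HCC4006, where *TXN* rose, the means were 204 ± 7.68 FPKM with vehicle and 338 ± 11.0 FPKM with DEM (SD, n = 2 each), and the log2 fold change was 0.72 (SE 0.06, limma adjusted p = 0.00275). In ABC1 the means were 196 ± 35.6 and 335 ± 31.9 FPKM (SD, n = 2 each), and the log2 fold change of 0.78 (SE 0.17, 95% confidence interval, CI, 0.35 to 1.20) did not pass the threshold (limma adjusted p = 0.0924). In a model of all 8 libraries, with an adjusted p of 0.0159, *TXN* was called in ABC1 too, and its adjusted p over all alternatives ranged from 0.00285 to 0.404. In HCC4006 that range was 0.00210 to 0.0557, the highest with no minimum expression, where the call was lost. Of the 17 processed copies of members that were listed, 2 copies of *TXN* reached 1 FPKM in any library, with at most 3.71 FPKM.

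**Figure D2:**
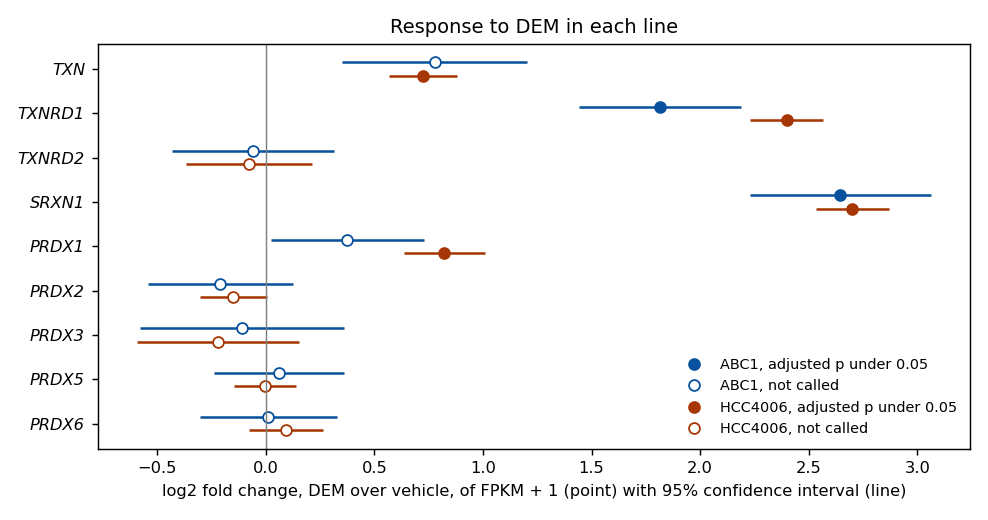
log2 fold change of FPKM + 1, DEM over vehicle, for the 9 genes in ABC1 (blue) and HCC4006 (brown), with 95% CIs from limma as lines and filled points for an adjusted p under 0.05. *SRXN1* and *TXNRD1* lie to the right in both lines, *TXN* and *PRDX1* are filled in HCC4006 only, and the intervals of the other 5 genes span 0.

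Among the peroxiredoxins, *PRDX1* was called in 1 line. *PRDX1* (ENSG00000117450.9, chr1:45976586-46008404, minus strand) encodes a cytosolic typical 2-Cys enzyme. In HCC4006 it had 171 and 181 FPKM with vehicle and 296 and 329 FPKM with DEM. It rose there from a vehicle mean of 176 ± 7.01 FPKM to a DEM mean of 313 ± 23.6 FPKM (SD, n = 2 each), and the log2 fold change was 0.82 (SE 0.08, limma adjusted p = 0.00319). In ABC1, where *PRDX1* started from a higher level, the libraries held 406 and 452 FPKM with vehicle and 582 and 531 FPKM with DEM. The ABC1 groups did not overlap either, but the log2 fold change of 0.38 (SE 0.14, 95% CI 0.02 to 0.73) did not pass (limma adjusted p = 0.205). The adjusted p of *PRDX1* over the alternatives lay between 0.0320 and 0.637 in ABC1. In HCC4006 it lay between 0.00195 and 0.0741, and the call there was lost with no minimum expression.

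*PRDX2* (ENSG00000167815.7, chr19:12907634-12912614, minus strand), a second cytosolic typical 2-Cys enzyme, moved the other way in value. It had 105 and 117 FPKM with vehicle and 90.3 and 102 FPKM with DEM in ABC1, and 166 and 164 FPKM with vehicle and 145 and 152 FPKM with DEM in HCC4006. Both DEM libraries lay under both vehicle libraries in each line, but the log2 fold changes of -0.21 (SE 0.13, adjusted p = 0.416) and -0.15 (SE 0.06, adjusted p = 0.147) did not pass by limma. *PRDX2* overlaps *HOOK2*, a gene on the same strand that was given at 31.8 to 53.3 FPKM.

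*PRDX6* (ENSG00000117592.8, chr1:173446469-173457954, plus strand), a 1-Cys enzyme that relies on glutathione rather than thioredoxin, kept to 370 and 386 FPKM with vehicle and 388 and 374 FPKM with DEM in ABC1. In HCC4006 it had 65.7 and 66.9 FPKM with vehicle and 72.3 and 69.3 FPKM with DEM. The groups overlapped in ABC1 and lay slightly apart in HCC4006, where the log2 fold change was 0.09 (95% CI -0.08 to 0.26, limma adjusted p = 0.370). In ABC1 the log2 fold change of *PRDX6* was 0.01 (95% CI -0.30 to 0.33, limma adjusted p = 0.967). *PRDX5* (ENSG00000126432.9, chr11:64085593-64089283, plus strand), an atypical 2-Cys enzyme found in several compartments, had 150 and 161 FPKM with vehicle and 162 and 163 FPKM with DEM in ABC1. In HCC4006 *PRDX5* had 332 and 326 FPKM with vehicle and 325 and 331 FPKM with DEM, and the groups overlapped. Its log2 fold changes were 0.06 (95% CI -0.24 to 0.36) in ABC1 and -0.0034 in HCC4006 (95% CI -0.14 to 0.14).

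The 2 mitochondrial members had low levels and overlapping groups in both lines. *TXNRD2* (ENSG00000184470.15, chr22:19863040-19929343, minus strand), the mitochondrial thioredoxin reductase, had 19.7 and 20.5 FPKM with vehicle and 17.2 and 21.6 FPKM with DEM in ABC1. In HCC4006 *TXNRD2* had 7.19 and 7.02 FPKM with vehicle and 7.17 and 6.24 FPKM with DEM. *PRDX3* (ENSG00000165672.5, chr10:120927232-120938324, minus strand), the mitochondrial typical 2-Cys enzyme, had 21.6 and 18.7 FPKM with vehicle and 22.0 and 15.6 FPKM with DEM in ABC1. The *PRDX3* libraries of HCC4006 held 19.9 and 24.1 FPKM with vehicle and 16.4 and 21.3 FPKM with DEM. In neither line did either gene show a difference beyond the spread of its libraries, with log2 fold changes between -0.22 and -0.06 and adjusted p-values between 0.346 and 0.851 by limma. The 95% CI of *PRDX3* was -0.58 to 0.36 in ABC1 and -0.59 to 0.16 in HCC4006.

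The responses of the lines were compared by the interaction of line and treatment in a limma model of all 8 libraries. Of the 9 genes, 0 were called, beside 0.307% of 13682 genes called with a more positive response in HCC4006 and 0.329% called with a more negative one. At an unadjusted p under 0.05 by limma, 2 of the 9 genes passed, *TXNRD1* and *PRDX1*, against 15.1% of all genes tested. The log2 fold change of *TXNRD1* was 0.58 higher in HCC4006 than in ABC1 (SE 0.16, 95% CI 0.20 to 0.97, limma adjusted p = 0.166). For *PRDX1* the difference was 0.45 (SE 0.15, 95% CI 0.10 to 0.80, limma adjusted p = 0.226). The responses of *SRXN1* and *TXN* differed between the lines by 0.06 (95% CI -0.38 to 0.50) and by -0.05 (95% CI -0.50 to 0.40). *TXN* and *PRDX1* were thus called in HCC4006 and not in ABC1, but the difference between the lines was itself not called. The standard errors of the called genes were 0.15 and 0.17 in ABC1 against 0.06 to 0.08 in HCC4006, and the smallest log2 fold change called among all genes was 0.80 in ABC1 against 0.22 in HCC4006.

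With vehicle alone, HCC4006 had less *PRDX6*, *TXNRD2*, *PRDX1* and *SRXN1* and more *PRDX5* and *PRDX2* than ABC1. Of the 9 genes, 2 were called higher in HCC4006, against 37.3% of 13747 genes tested, and 4 were called lower, against 30.4%, so that differences between the lines were common among all genes as well. *PRDX6* was lower in HCC4006, at 66.3 ± 0.788 FPKM (SD, n = 2) against 378 ± 11.1 FPKM (SD, n = 2) in ABC1, a log2 fold change of -2.49 (SE 0.08, limma adjusted p = 2.0e-05). *TXNRD2* and *PRDX1* were also lower, with log2 fold changes of -1.38 (adjusted p = 1.9e-04) and -1.28 (adjusted p = 2.5e-04) by limma. *SRXN1* was lower by a log2 fold change of -0.79 (SE 0.15, limma adjusted p = 0.00590). *PRDX5* was higher in HCC4006, at 329 ± 4.06 FPKM against 156 ± 7.81 FPKM (SD, n = 2 each), and the log2 fold change was 1.08 (SE 0.09, limma adjusted p = 3.0e-04). *PRDX2* was higher by 0.56 (SE 0.09, limma adjusted p = 0.00392). The calls of *SRXN1* and *PRDX2* did not hold when either HCC4006 vehicle library was left out. Without HCC4006 vehicle replicate 0 the log2 fold changes were -0.76 for *SRXN1* (adjusted p = 0.107) and 0.55 for *PRDX2* (adjusted p = 0.0691) by limma, and without replicate 1 they were -0.83 (adjusted p = 0.0911) and 0.57 (adjusted p = 0.0662). With no minimum expression *SRXN1* was not called either (limma adjusted p = 0.0635). *TXN*, *TXNRD1* and *PRDX3* were not called, with log2 fold changes of 0.06, -0.06 and 0.12, although *TXN* was called without ABC1 vehicle replicate 1 (log2 fold change 0.25, limma adjusted p = 0.0460).

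The order of levels in FPKM differed between the lines and between treatments. In ABC1 vehicle cells the order from the highest mean was *PRDX1*, *PRDX6*, *TXN*, *TXNRD1*, *PRDX5*, *PRDX2*, *SRXN1*, *PRDX3* and *TXNRD2*. Libraries of *TXN* and *TXNRD1*, of *TXNRD1* and *PRDX5*, and of *PRDX3* and *TXNRD2* overlapped in that order. In HCC4006 vehicle cells the order was *PRDX5*, *TXN*, *PRDX1*, *TXNRD1*, *PRDX2*, *PRDX6*, *SRXN1*, *PRDX3* and *TXNRD2*, where *PRDX1* and *TXNRD1* overlapped. With DEM, *TXNRD1* came first and *SRXN1* next in both lines by mean FPKM. The place of *SRXN1* in every order shares the limit on its level given above. For the other 8 genes the order holds for FPKM only, since their base mean per FPKM and kilobase of exon ranged from 2.75 to 11.5. In ABC1 the *SRXN1* libraries then overlapped those of *PRDX1*, and in HCC4006 *SRXN1*, *TXN*, *PRDX5* and *PRDX1* followed each other with overlapping libraries.

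The make-up of the peroxiredoxin pool was followed by summing the FPKM of *PRDX1* to *PRDX6*, with *PRDX4*, the enzyme of the endoplasmic reticulum, added to the 5 listed genes. The sum was 1131 and 1199 FPKM in ABC1 vehicle and 1318 and 1245 FPKM in ABC1 DEM libraries. In HCC4006 it was 803 and 815 FPKM with vehicle and 900 and 955 FPKM with DEM. *PRDX1* held 36.8% ± 1.29 of the sum with vehicle and 43.4% ± 1.08 with DEM in ABC1, and 21.8% ± 0.647 with vehicle and 33.7% ± 1.15 with DEM in HCC4006 (SD, n = 2 each). The largest share in HCC4006 was that of *PRDX5*, with 40.6% ± 0.913 with vehicle and 35.4% ± 1.07 with DEM (SD, n = 2 each), whereas in ABC1 *PRDX5* held 13.3% ± 0.122 and 12.7% ± 0.577 (SD, n = 2 each). *PRDX6* held 32.4% ± 0.383 of the ABC1 vehicle pool and 8.20% ± 0.0146 of the HCC4006 vehicle pool (SD, n = 2 each). Since the shares add to the whole, a larger share of *PRDX1* makes the others smaller even where their levels did not change. These shares are descriptions and were not tested.

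**Figure D3:**
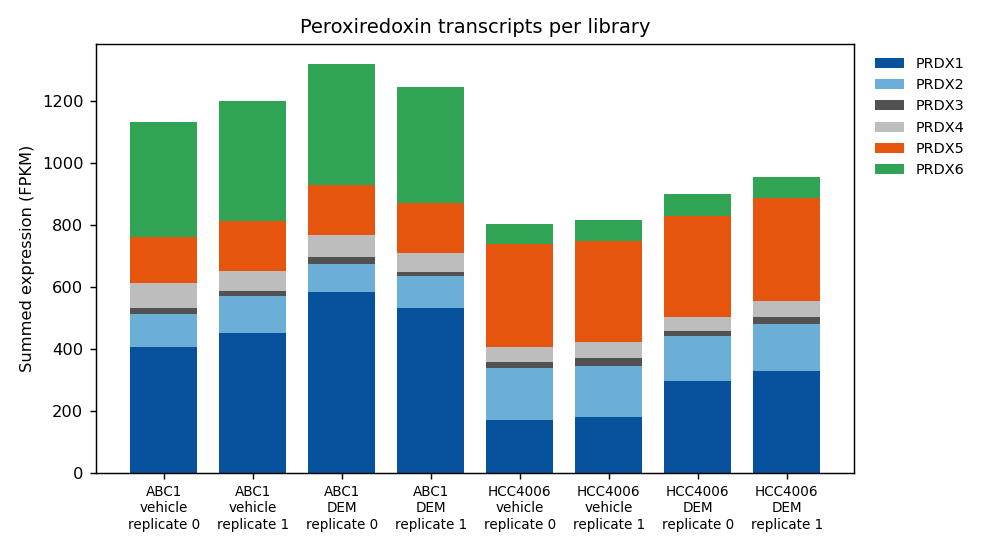
Summed FPKM of the 6 peroxiredoxin genes in each of the 8 libraries, stacked by gene from 0. The *PRDX1* band is thicker in the DEM libraries of both lines, *PRDX6* is thick in ABC1 only, and *PRDX5* is the widest band in every HCC4006 library.

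The unequal responses changed the proportions between partners. The ratio of *TXNRD1* to *TXN* in FPKM was 0.939 and 0.886 in ABC1 vehicle libraries and 1.96 and 1.79 with DEM, and in HCC4006 it was 0.841 and 0.833 with vehicle and 2.62 and 2.73 with DEM. In FPKM, reductase transcript was thus below thioredoxin transcript in every vehicle library and above it in every DEM library. The authors' base mean per FPKM and kilobase of exon was 4.92 for *TXNRD1* and 10.9 for *TXN* in ABC1. In HCC4006 it was 4.87 and 11.2. The order of the 2 transcripts therefore depends on the scale, and whether it holds beyond FPKM was not tested. The ratio of the cytosolic to the mitochondrial reductase, *TXNRD1* to *TXNRD2*, was 8.17 and 9.56 in ABC1 vehicle and 35.7 and 29.7 in ABC1 DEM libraries. In HCC4006, where *TXNRD2* was low, that ratio was 23.2 and 24.8 with vehicle and 121 and 151 with DEM. The ratio of *PRDX1* to *SRXN1*, the enzyme to its repair partner, went from 5.11 and 4.32 to 1.04 and 0.896 in ABC1 and from 3.37 and 3.38 to 0.884 and 0.928 in HCC4006, which brought both transcripts to a like level with DEM in each line. Ratios with *SRXN1* share the limit on its level given above, and none of these ratios was tested.

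Genes whose pattern over the 8 libraries was most like that of a member were found by the root mean square difference of log2(FPKM + 1), centred within each line, among 11539 genes with at least 1 FPKM on average in each line. The nearest to *TXNRD1* were *GCLM* (0.143), the modifier subunit of glutamate-cysteine ligase, *TRIM16L* (0.167) and *MAP2* (0.243). The nearest to *SRXN1* were *SLC7A11* (0.117), the cystine transporter, *HMOX1* (0.246), heme oxygenase 1, and *GCLC* (0.272), the catalytic subunit of glutamate-cysteine ligase. *TXN*, with its smaller response, was nearest to *CSGALNACT2* (0.0384), *MTHFD2* (0.0595) and *ADAM17* (0.0653).

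Other genes of the pathway were counted in 4 lists. Of 27 thioredoxin-fold relatives (thioredoxin-related proteins, glutaredoxins and protein disulfide isomerases), 0 were called in ABC1, where 2 had an unadjusted p under 0.05 by limma against 21.9% of all genes, and 1 was called higher in HCC4006, where 8.45% of all genes were. This was *GLRX*, glutaredoxin 1, which had 21.3 and 20.8 FPKM with vehicle and 37.8 and 37.1 FPKM with DEM in HCC4006, a log2 fold change of 0.80 (SE 0.08, limma adjusted p = 0.00345). In ABC1 the level of *GLRX* was 3.89 and 4.09 FPKM with vehicle and 3.81 and 4.80 FPKM with DEM, and its response did not differ between the lines beyond the threshold (difference 0.72, limma adjusted p = 0.110). The median log2 fold change of these relatives was -0.04 in ABC1 and -0.06 in HCC4006, close to that of all genes.

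Of 12 substrates and partners, 0 were called in ABC1 (4 at an unadjusted p under 0.05 by limma, against 21.9% of all genes). In HCC4006 1 was called higher, against 8.45% of all genes, and 2 lower, against 10.7%. The 2 that fell, *RRM1* and *RRM2*, encode subunits of ribonucleotide reductase, which makes deoxyribonucleotides and takes electrons from thioredoxin or glutaredoxin. *RRM2B*, which encodes another subunit, was not called in HCC4006 (log2 fold change -0.03, limma adjusted p = 0.872). *RRM2* had 106 and 97.3 FPKM with vehicle and 37.7 and 37.9 FPKM with DEM in HCC4006, a log2 fold change of -1.40 (SE 0.08, limma adjusted p = 7.1e-04), and *RRM1* fell with a log2 fold change of -0.58 (limma adjusted p = 0.00654). The ABC1 values were 111 and 168 FPKM with vehicle and 84.4 and 111 FPKM with DEM for *RRM2*, which did not pass (log2 fold change -0.49, limma adjusted p = 0.300). *RRM1* in ABC1 had 63.8 and 79.6 FPKM with vehicle and 40.7 and 58.2 FPKM with DEM, lower with DEM without overlap, and did not pass either (log2 fold change -0.54, SE 0.21, limma adjusted p = 0.211). *MSRB1*, a selenoprotein that reduces methionine sulfoxide, rose in HCC4006 with a log2 fold change of 0.49 (limma adjusted p = 0.0108). The call of *MSRB1* was lost without vehicle replicate 0 (0.46, limma adjusted p = 0.0658), DEM replicate 0 (0.48, limma adjusted p = 0.0534) or vehicle replicate 1 (0.53, limma adjusted p = 0.0561), and that of *RRM1* in the model of all 8 libraries (limma adjusted p = 0.0746).

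The selenocysteine machinery, which thioredoxin reductases need for their selenocysteine, had 0 of 7 genes called in ABC1 and 0 of 8 in HCC4006. Over all genes tested, 0.768% were called higher and 0.435% lower in ABC1, and 8.45% and 10.7% in HCC4006. At an unadjusted p under 0.05 by limma, 0 of its genes passed in each line, against 21.9% of all genes in ABC1 and 36.8% in HCC4006. Its median log2 fold changes were 0.16 in ABC1 and -0.09 in HCC4006. In the list of alpha-arrestins, relatives of the thioredoxin-interacting protein, and their glucose sensors, 0 of 6 genes were called in ABC1 (0 at an unadjusted p under 0.05 by limma) and 4 of 7 were called higher in HCC4006, against 0.768% of all genes called higher in ABC1 and 8.45% in HCC4006. These were *ARRDC3* (log2 fold change 0.96, adjusted p = 0.00732), *ARRDC4* (0.83, adjusted p = 0.00820), *ARRDC2* (0.49, adjusted p = 0.0482) and *ARRDC1* (0.35, adjusted p = 0.0404), all by limma. The calls of *ARRDC1* and *ARRDC2* were lost whichever HCC4006 library was left out, with adjusted p-values of 0.0557 to 0.168 and of 0.0701 to 0.180 and log2 fold changes of 0.27 to 0.44 and of 0.37 to 0.61. That of *ARRDC4* was lost without DEM replicate 0 (0.82, limma adjusted p = 0.0528) or vehicle replicate 1 (0.79, limma adjusted p = 0.0515), whereas *ARRDC3* was called whichever library was left out. *ARRDC3* had 7.10 and 6.14 FPKM with vehicle and 12.9 and 14.7 FPKM with DEM. Leaving out libraries does not cover the fit with no minimum expression, where 370 genes were called in HCC4006 rather than 2591. No gene of the 4 lists was called for a difference in response between the lines. Over all 13682 genes tested, 0.307% were called with a more positive response in HCC4006 and 0.329% with a more negative one. At an unadjusted p under 0.05 by limma, 4 of 27 thioredoxin-fold relatives and 2 of 12 substrates and partners passed. So did 1 of 8 selenocysteine genes and 2 of 7 genes in the alpha-arrestin list, against 15.1% of all genes.

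**Figure D4:**
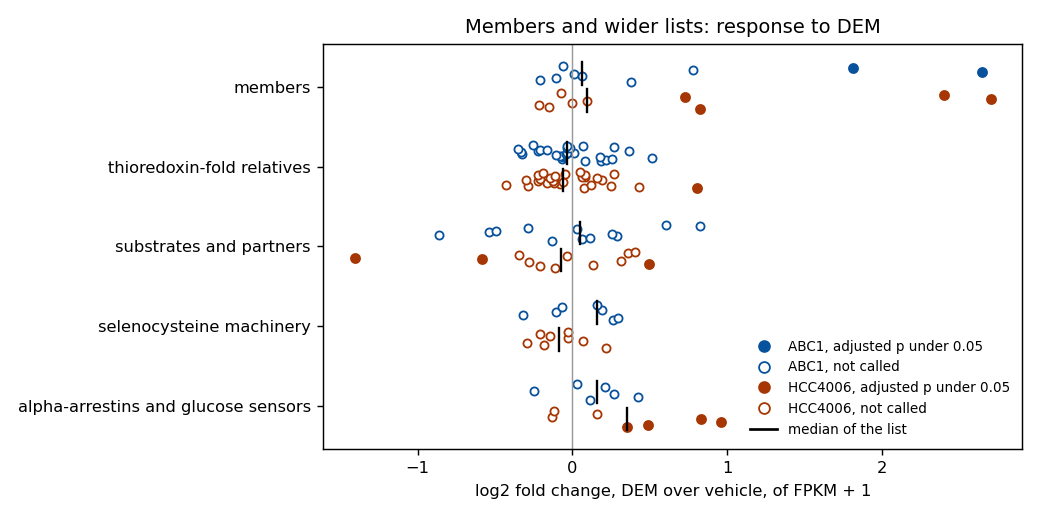
log2 fold change of FPKM + 1, DEM over vehicle, for each measured member and each gene of the 4 wider lists in ABC1 (blue) and HCC4006 (brown), with filled points for an adjusted p under 0.05 by limma and a black bar at the median. The medians lie between -0.09 and 0.35 in every row, and *SRXN1* and *TXNRD1* stand to the right of every other gene in both lines.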

How the data were processed

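RNA of ABC1 and HCC4006 cells, treated with 100 μM DEM or DMSO for 16 h, was measured by polyA-selected, strand-specific, paired-end RNA-seq, with 2 libraries in each of 4 groups. The authors deposited FPKM values per gene and library, aligned to hg19. The methods of the study name TopHat and Cufflinks, whereas the submitters' processing notes list STAR 2.5.3a, Cuffnorm, HTSeq and DESeq2, and which of these made the FPKM values could not be settled. Whether the FPKM values used strand is not given in the sources used here. The authors also deposited a comparison table per line. From it only the base mean, a signal of scaled counts averaged over the line's libraries, was used as the authors' value. Its other columns, which hold the authors' own fold changes, standard errors, statistics and p-values, were not used.

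FPKM values were analysed as log2(FPKM + 1) in R 4.3.3 with limma 3.58.1, whose prior variance followed mean expression. Genes averaging 1 FPKM or more in the libraries fitted were tested, with Benjamini-Hochberg adjustment over all of these genes and calls at an adjusted p under 0.05. Within-line comparisons used the 4 libraries of the line, the comparison of responses used all 8, and the comparison of the lines used the 4 vehicle libraries. No count test was run, because the values are not counts. Fold changes are on the log2(FPKM + 1) scale, which understates the change of low genes. The fit was tested on simulated data, whose spread was pooled over all 8 libraries. That test cannot describe the error in ABC1 alone, and no conclusion is drawn from it here. The depth of single libraries is unknown, so no counting interval is given. Symbols were matched to 55534 of the 57815 identifiers. GENCODE on GRCh37 gave the positions. Groups were taken from the sample titles.

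The members, the wider lists and the tests were chosen with earlier results of these data known. All listed members were named, together with each gene of a wider list that was called within a line, and *RRM2B* beside *RRM1* and *RRM2*. Also named were the 4 genes that check the treatment and the 3 genes nearest in pattern to *TXNRD1*, *SRXN1* and *TXN*. The alternatives were a pseudocount of 0.1, no minimum expression, no mean-variance trend, scaling by the median of ratios, a model of all 8 libraries, the replicate number as a block and leaving out each library in turn. A planned description of the protein sequences, and that of a carbohydrate response element at *TXNIP*, were not made.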

Additional observations from a re-analysis of the deposited data

How the results depend on the processing

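In ABC1, the 152 genes called became 0 with no minimum expression (3883 at an unadjusted p under 0.05 by limma), 33 without the mean-variance trend, 241 with scaling by the median of ratios and 1494 in a model of all 8 libraries, and the 2 members called became 0 with no minimum (3 at an unadjusted p under 0.05 by limma). In HCC4006, the 2591 genes called became 370 with no minimum and 1553 in the model of all 8 libraries, and the 4 members called became 2 with no minimum, where *PRDX1* (limma adjusted p = 0.0741) and *TXN* (limma adjusted p = 0.0557) were lost. The 87 genes called for a different response became 20 with a pseudocount of 0.1 and 403 with no minimum. With no minimum, 29470 genes entered the ABC1 fit. Leaving out each library in turn gave 18 to 69 genes and 0 to 2 members in ABC1, 634 to 1028 genes and 4 members in HCC4006, 4 to 41 genes and 0 members for the difference in response, and 5572 to 9005 genes and 4 to 7 members between the vehicle libraries of the lines, beside 9305 genes and 6 members with every library.

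With the replicate number as a block, ABC1 gave 2348 genes and 4 members, with *PRDX1* (limma adjusted p = 0.0320) and *TXN* (limma adjusted p = 0.00285) added, as were *RRM1* and *RRM2* among the wider lists (limma adjusted p = 0.0107 and limma adjusted p = 0.0125), and in HCC4006 *ARRDC2* was lost (limma adjusted p = 0.0516), and the difference in response gave 13 genes. The deviations of same-numbered vehicle and DEM libraries from their group means correlated across 13682 genes with r = 0.257 in ABC1 and r = 0.0538 in HCC4006. No source states what the numbers mark, so they were not taken as pairs.

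Members and named genes changed direction only when a library was left out, and none of the values of opposite sign passed the test. Over these fits the log2 fold change in ABC1 ranged from -0.017 to 0.043 for *PRDX6*, from -0.21 to 0.097 for *TXNRD2* from -0.34 to 0.12 for *PRDX3* and from -0.052 to 0.22 for *GLRX*. In HCC4006 it ranged from -0.016 to 0.0091 for *PRDX5* and from -0.16 to 0.011 for *TXNRD2*. The difference in response ranged from -0.24 to 0.13 for *TXN*, from -0.17 to 0.14 for *TXNRD2*, from -0.34 to 0.12 for *PRDX3*, from -0.030 to 0.15 for *PRDX2* and from -0.14 to 0.25 for *SRXN1*. Between the vehicle libraries of the lines it ranged from -0.12 to 0.25 for *TXN*, from -0.20 to 0.084 for *TXNRD1* and from -0.013 to 0.25 for *PRDX3*. The cause of these changes was not tested.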
